A study of Mus musculus with 24 samples.

Results

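The genes described here are 7 matrix metalloproteinases (MMPs: Mmp2, Mmp3, Mmp8, Mmp9, Mmp12, Mmp14 and Mmp19) and 3 tissue inhibitors of metalloproteinases (TIMPs: Timp1, Timp2 and Timp3). They are 10 of the 36333 genes in the expression table of the series. They were chosen by symbol from that table with their TPM (a length-corrected share of all transcripts) in the 5 groups already known, so their differences between groups are given as a description, with no test of a member. MMPs are zinc-dependent proteases that cut collagen, elastin and other matrix proteins, and most are made as inactive proenzymes that other proteases activate. TIMPs bind active MMPs and block them, and Timp3 is bound to the matrix. In injured brain these proteins are known for their part in degrading the vascular basement membrane, in the entry of leukocytes and in the building of the lesion scar.

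RNA was taken from 24 male mice aged 12 to 16 weeks, labelled C57BL6N, at 5 days post injury (dpi). Traumatic brain injury (TBI) was made by controlled cortical impact, and the injured mice received vehicle, PLX3397, Anakinra or both drugs (PLX3397+Anakinra), with 5 mice in each group. PLX3397, an inhibitor of the CSF1 receptor on which microglia depend, was given in food at 290 mg/kg starting 90 min after injury. Anakinra, a recombinant antagonist of the interleukin-1 receptor, was injected at 100 mg/kg at 5 min and at 24, 48 and 72 h. The 4 sham mice had a skin incision and no opening of the skull, so every comparison with sham covers the surgery as well as the impact. The names of the vehicle mice alone end in the letter B, and whatever that letter stands for cannot be told apart from the vehicle group. Each library is from 1 mouse, so a p-value measures the spread between mice.

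TPM corrects for gene length and sets each library to the same total. TPM keeps no sequencing depth, so the read support of a low value is not known and counting error could not be computed. Between 22160 and 23249 genes were above 0 in a library. The labels name cortex, and the study's methods name striatum, hippocampus and thalamus as well. Neuron markers summed to 3048 to 5321 TPM, and markers of the choroid plexus, which is no part of the cortex, to 2654 to 4995 TPM. Markers of microglia summed to 346 to 367 TPM in sham and 1305 to 1644 TPM in vehicle, and to 561 to 853 TPM with PLX3397 and 516 to 691 TPM with PLX3397+Anakinra. In bulk tissue, fewer cells of a type and less RNA per cell cannot be told apart.

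Vehicle mice J17B and J20B stood apart from the other injured mice in fibroblast genes. The mean log2(TPM + 1) of 10 fibroblast markers (among them Col1a1, Col3a1, Dcn and Lum) was 3.47 in J17B and 3.74 in J20B, against 5.08 to 6.29 in the other 18 injured mice and 2.57 to 2.79 in sham. Differences of the members from vehicle in the drug groups are therefore given with and without these mice, an alternative chosen after seeing the data. Other results that rest on the vehicle group use all 5 vehicle mice unless stated.

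All 10 genes were found in RefSeq for build GRCm38.p6, and 3 of them lie in the MMP cluster of chromosome 9, which holds 10 MMP genes within 427072 bases. On the plus strand of chromosome 9 stand Mmp12 at 7344397-7360461, Mmp3 at 7445822-7455975 and Mmp8 at 7558429-7568486. Mmp13 and Mmp12 open the cluster, Mmp3 and Mmp10 lie in its middle, and Mmp27 starts 2909 bases after the end of Mmp8. These 6 genes averaged 0.5 TPM or more, and Mmp1a, Mmp1b, Mmp7 and Mmp20 had maxima of 0.0624, 0.302, 0.225 and 0.0796 TPM. The other members are spread over the genome, with Mmp2 on chromosome 8 (92827290-92853421), Mmp9 on 2 (164940326-164955850), Mmp14 on 14 (54431598-54442456), Mmp19 on 10 (128790910-128800827), Timp1 on X (20870166-20874737), Timp2 on 11 (118301061-118355411) and Timp3 on 10 (86300412-86349505).

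The promoter stretches of the 6 expressed genes of the cluster are shown because the levels of these neighbours took different orders across the groups. Each is the 120 bases before a transcription start, from RefSeq (GRCm38.p6, plus strand), in the order of the chromosome. Capitals mark the motif TGANTCA, the site of the AP-1 transcription factors, which reads the same on both strands. It stood in 3.41% of the 32851 promoter windows of this length. The windows are chr9:7272394-7272513 for Mmp13, chr9:7347254-7347373 for Mmp12, chr9:7445702-7445821 for Mmp3, chr9:7502222-7502341 for Mmp10, chr9:7558309-7558428 for Mmp8 and chr9:7571276-7571395 for Mmp27.
Mmp13: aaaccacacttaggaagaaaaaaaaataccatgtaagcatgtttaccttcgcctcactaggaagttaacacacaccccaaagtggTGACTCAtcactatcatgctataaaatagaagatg
Mmp12: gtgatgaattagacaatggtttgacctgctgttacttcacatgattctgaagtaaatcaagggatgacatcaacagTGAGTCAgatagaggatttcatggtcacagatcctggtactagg
Mmp3: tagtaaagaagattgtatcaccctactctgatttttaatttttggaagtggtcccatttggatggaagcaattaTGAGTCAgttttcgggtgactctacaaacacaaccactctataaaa
Mmp10: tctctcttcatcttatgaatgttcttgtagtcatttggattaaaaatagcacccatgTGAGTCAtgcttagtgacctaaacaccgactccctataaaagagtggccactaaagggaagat
Mmp8: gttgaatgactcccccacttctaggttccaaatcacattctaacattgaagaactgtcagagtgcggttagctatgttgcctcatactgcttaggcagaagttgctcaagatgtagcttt
Mmp27: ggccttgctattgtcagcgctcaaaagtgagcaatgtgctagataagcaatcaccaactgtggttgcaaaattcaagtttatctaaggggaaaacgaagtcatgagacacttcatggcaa
The motif began 35 bases before the start of Mmp13, 46 before Mmp3 and 63 before Mmp10. For Mmp12 it began 44 bases before the second of 2 listed starts, and the window of the first start did not hold it. These letters were not in the windows of Mmp8 and Mmp27, nor in those of Mmp14, Timp1, Timp2 and Timp3. For Mmp2, Mmp9 and Mmp19 no promoter window was available, and they were not searched. Whether any of these sites is bound was not measured.

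Mmp8, a collagenase stored in the granules of neutrophils, was below vehicle in every drug group. Its TPM was listed at 0 in all 4 sham mice. The vehicle mice had 4.15, 3.09, 4.11, 3.99 and 3.75 TPM, and the PLX3397+Anakinra mice 0.957, 0.522, 0.840, 0.585 and 0.409 TPM. In between lay the PLX3397 mice with 1.62, 2.83, 2.61, 2.06 and 2.74 TPM and the Anakinra mice with 1.59, 2.29, 2.25, 2.19 and 2.00 TPM. No mouse of a drug group reached the lowest vehicle mouse, no PLX3397+Anakinra mouse reached the lowest mouse of either single-drug group, and the single-drug groups overlapped. Of the 17267 genes averaging 0.5 TPM or more, 4.91% lay wholly below vehicle with PLX3397, 1.42% with Anakinra and 6.62% with both. With both drugs, 0.76% lay wholly below PLX3397 alone and 7.26% wholly below Anakinra alone. On the log2(TPM + 1) scale, used for all differences below and understating the change of low genes, Mmp8 differed from vehicle by -0.52 ± 0.11 (SE) with PLX3397, by -0.65 ± 0.11 with Anakinra and by -1.54 ± 0.11 with PLX3397+Anakinra. Without J17B and J20B these values were -0.61, -0.74 and -1.62. Against PLX3397 alone the combination differed by -1.02 ± 0.11, and against Anakinra alone by -0.89 ± 0.11. The difference made by PLX3397 in the presence of Anakinra, less that in its absence, was -0.36 ± 0.15 on this scale. It depended on the scale. Mean TPM was 3.82 in vehicle, 2.37 with PLX3397, 2.06 with Anakinra and 0.663 with both. PLX3397 thus lowered mean TPM by a similar amount with and without Anakinra. The log2 value was also below 0 for Mmp2 (-0.85 ± 0.31), Mmp3 (-1.45 ± 0.45), Mmp9 (-1.02 ± 0.28) and Mmp12 (-0.66 ± 0.25). The same was so for Mmp14 (-0.54 ± 0.28), Mmp19 (-0.11 ± 0.19) and Timp1 (-0.87 ± 0.37). It was above 0 for Timp2 (0.035 ± 0.08) and Timp3 (0.059 ± 0.06). These values use all 5 vehicle mice. They were not computed without J17B and J20B, on which the differences of several of these genes from vehicle depended. With a pseudocount of 0.1 in place of 1, the difference of the combination from vehicle was -2.41 for Mmp8.

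Markers of neutrophils gave the following values beside Mmp8. Of the 12 markers, 3 averaged 0.5 TPM or more (S100a8, S100a9 and Csf3r), and the sum over the list was 3.44 to 6.76 TPM in sham, 19.7 to 58.8 TPM in vehicle, 19.6 to 58.0 TPM with PLX3397, 29.6 to 66.0 TPM with Anakinra and 16.8 to 33.2 TPM with both drugs. The other 9 markers were each under 2 TPM in every injured mouse. Of these 9, Ly6g was listed at 0 in 4 of 5 vehicle and 5 of 5 PLX3397+Anakinra mice, Elane in 4 and 5, and Ltf in 1 and 3. Ngp was at 0 in 3 and 3, Mpo in 4 and 1, Camp in 5 and 2, and Retnlg in 4 and 1. Cxcr2 and Padi4 were above 0 in all these mice. Cxcr2 averaged 0.401 TPM in vehicle and 0.288 TPM with both drugs, and Padi4 0.426 and 0.146 TPM. The 3 abundant markers, tested with limma and called at a Benjamini-Hochberg adjusted p under 0.05 as all genes below, did not move alike. Csf3r, the receptor for granulocyte colony-stimulating factor, fell with PLX3397 by 1.09 ± 0.12 (adjusted p = 3.5e-07, limma) and with PLX3397+Anakinra by 1.33 ± 0.12 (adjusted p = 6.29e-09), and with Anakinra it differed from vehicle by -0.17 ± 0.12 (adjusted p = 0.582). S100a8 differed from vehicle by 0.73 ± 0.40 with PLX3397 (adjusted p = 0.288, limma), by 0.31 ± 0.40 with Anakinra (adjusted p = 0.792) and by 0.04 ± 0.40 with both (adjusted p = 0.96). S100a9 differed by 0.58 ± 0.46, 0.10 ± 0.46 and 0.23 ± 0.46 (adjusted p = 0.494, 0.954 and 0.789, limma). Microglial markers were also lower in both PLX3397 groups, and the part of either cell type in the Mmp8 level was not tested.

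**Figure D1:**
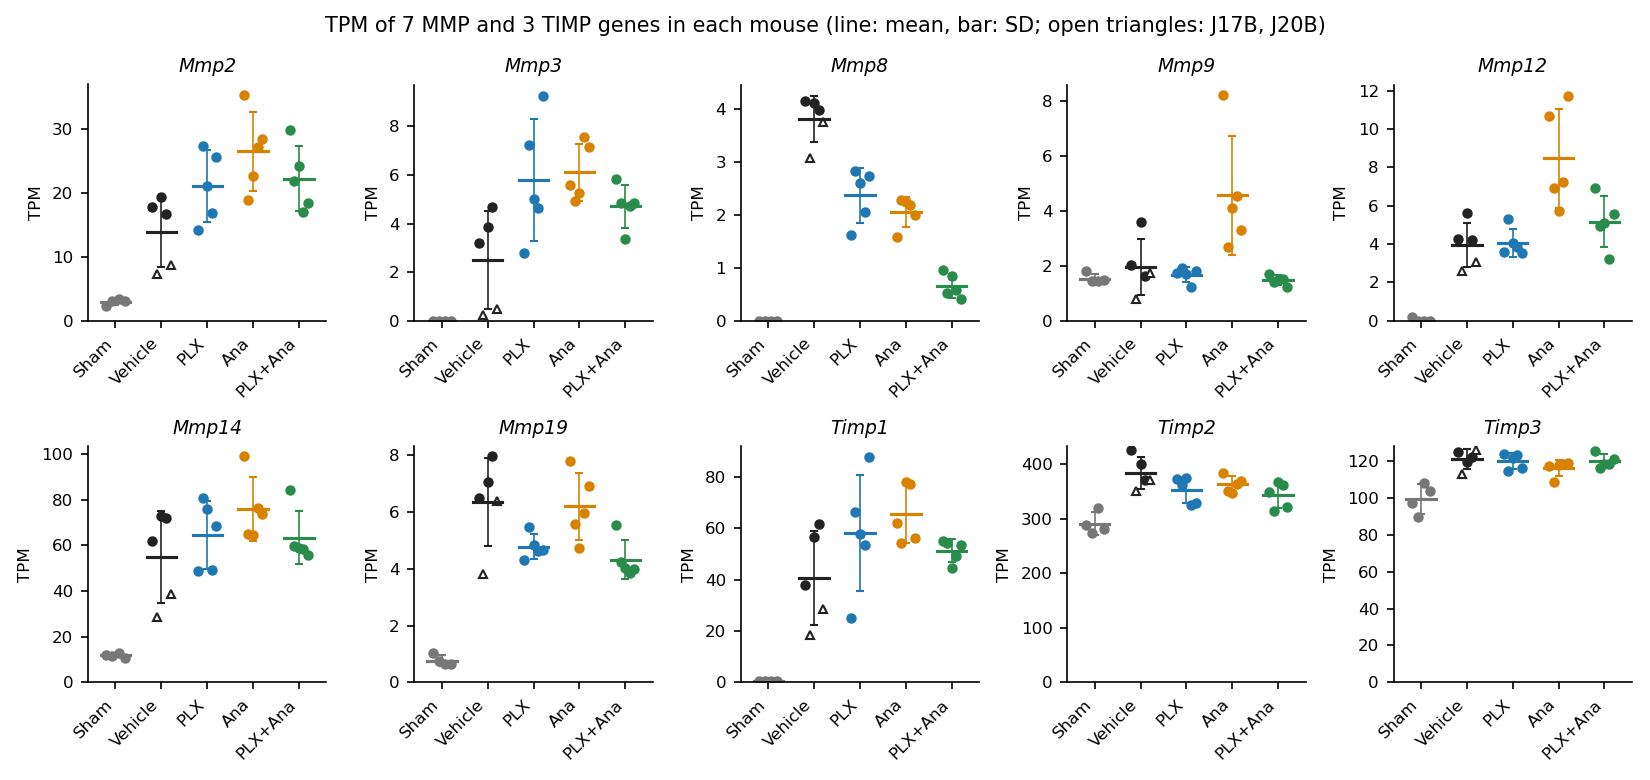
TPM of the 10 genes (y axis, linear, from 0) in each mouse of the 5 groups (x axis; PLX, PLX3397; Ana, Anakinra); lines are means and bars SD, drawn where no mouse of the group was at 0, and open triangles mark vehicle mice J17B and J20B. Mmp8 steps down from 3.09 to 4.15 TPM in vehicle to 0.409 to 0.957 TPM with PLX3397+Anakinra, whereas Mmp9 and Mmp12 stand highest with Anakinra.

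Mmp27, the neighbour of Mmp8 in the cluster and not a member, also had its highest mean in vehicle and its lowest injured mean with PLX3397+Anakinra. The single-drug means stood in the other order. They were 0.774 TPM with PLX3397 and 1.01 TPM with Anakinra for Mmp27, and 2.37 and 2.06 TPM for Mmp8. Mmp27 was listed at 0 in all 4 sham mice. It had 0.634 to 2.07 TPM in vehicle, 0.637 to 0.992 TPM with PLX3397, 0.629 to 1.201 TPM with Anakinra and 0.122 to 0.421 TPM with PLX3397+Anakinra. It rose after injury (adjusted p = 1.76e-08) and fell with PLX3397 by 0.46 ± 0.13 (adjusted p = 0.0204) and with PLX3397+Anakinra by 0.98 ± 0.13 (adjusted p = 3.53e-06, limma over 17267 genes). Against Anakinra alone the combination was lower by 0.69 ± 0.13 (adjusted p = 0.000445). The difference of Anakinra from vehicle, -0.29 ± 0.13, did not pass (adjusted p = 0.353), nor did that of the combination from PLX3397 alone, -0.51 ± 0.13 (adjusted p = 0.13). The call for PLX3397 was lost with a pseudocount of 0.1, in a fit of the compared groups alone, and without any 1 of J01B, J19B, J20B, J01 and J19. In single injured mice Mmp27 stood at 20.6% to 80.5% of the Mmp8 level. Mmp13 and Mmp10, the cluster's other genes outside the members, passed the test in no drug comparison. Mmp13, a collagenase, had 16.5, 1.31, 22.2, 22.6 and 1.12 TPM in the 5 vehicle mice, with both low values in J17B and J20B, and 7.29 to 40.7 TPM in the 15 drug-treated mice.

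**Figure D2:**
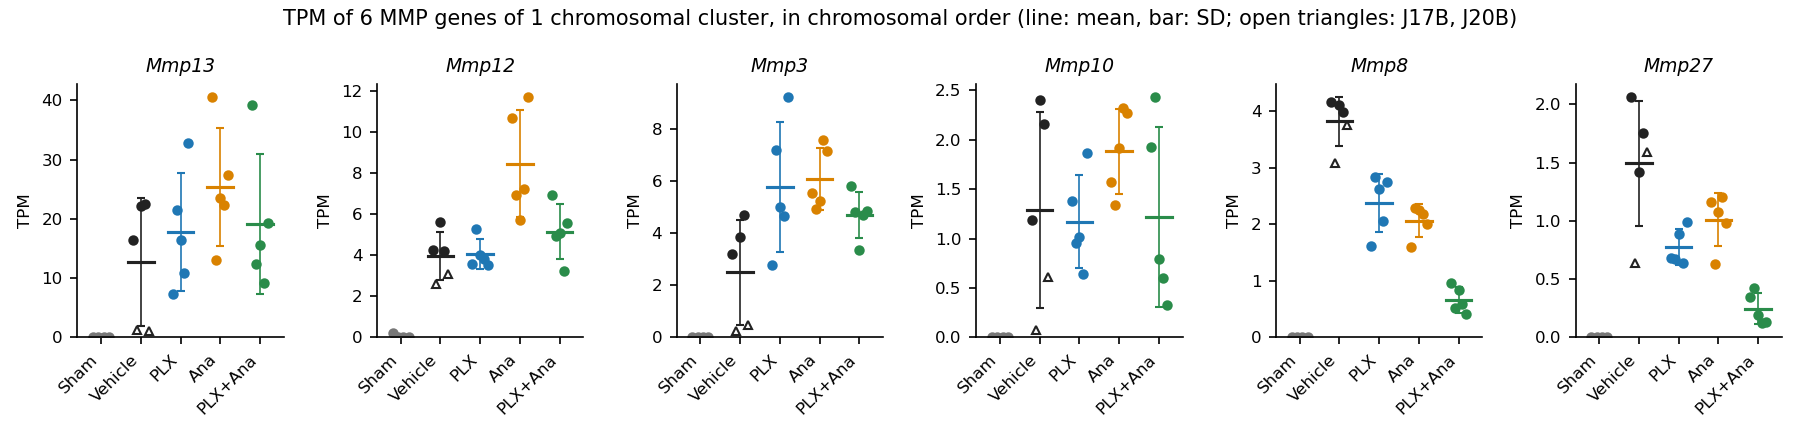
TPM of the 6 expressed MMP genes of the chromosome 9 cluster in chromosomal order, 1 panel per gene, with each mouse as a point by group (PLX, PLX3397; Ana, Anakinra; lines, means and bars, SD, where no mouse was at 0; open triangles, J17B and J20B). Mmp8 and Mmp27, the last pair, are lowest among injured groups with PLX3397+Anakinra, and J17B and J20B are the lowest injured mice for Mmp13 and Mmp3.

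Mmp12, the macrophage elastase, was highest with Anakinra. It was listed at 0 in 3 sham mice and at 0.188 TPM in the fourth. The Anakinra mice had 10.7, 6.94, 5.73, 7.24 and 11.7 TPM, and the vehicle mice 4.27, 2.62, 5.61, 4.19 and 3.08 TPM. The PLX3397 mice had 3.59, 5.28, 4.03, 3.83 and 3.53 TPM, and the PLX3397+Anakinra mice 6.91, 4.96, 5.10, 3.21 and 5.58 TPM. The lowest Anakinra mouse lay above the highest vehicle and PLX3397 mice, and it lay below the highest PLX3397+Anakinra mouse. Of the same 17267 genes, 1.14% lay wholly higher with Anakinra than in vehicle, and 5.38% wholly lower with PLX3397 than with Anakinra. The difference from vehicle was 0.92 ± 0.18 with Anakinra, 0.05 ± 0.18 with PLX3397 and 0.32 ± 0.18 with both, and the combination differed from Anakinra alone by -0.61 ± 0.18. Without J17B and J20B the differences from vehicle for Anakinra, PLX3397 and both were 0.70 ± 0.19, -0.17 ± 0.19 and 0.09 ± 0.19. Beside these levels, the summed markers of border macrophages were 64.0 to 138 TPM in vehicle, 30.9 to 60.5 TPM with PLX3397, 64.2 to 93.5 TPM with Anakinra and 10.4 to 18.7 TPM with both drugs. Summed microglial markers were 1435 to 1623 TPM with Anakinra, with the other groups as given above. The part of these cells in the Mmp12 level was not tested.

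Mmp9, gelatinase B, was above the sham range in every mouse of the Anakinra group alone. Sham mice had 1.80, 1.44, 1.44 and 1.49 TPM. The Anakinra mice had 8.24, 2.69, 4.10, 4.56 and 3.29 TPM, against 2.02, 0.796, 3.60, 1.63 and 1.74 TPM in vehicle. The PLX3397 mice had 1.23 to 1.91 TPM and the PLX3397+Anakinra mice 1.22 to 1.71 TPM, and neither group held a mouse at the lowest Anakinra value. Of the same 17267 genes, 21.3% lay wholly higher with Anakinra than in sham. Wholly below Anakinra lay 5.38% with PLX3397 and 7.26% with both drugs. Vehicle mouse J18B overlapped the Anakinra group, and mouse J05 set its upper end. Mmp9 differed from vehicle by 0.90 ± 0.20 with Anakinra, by -0.08 ± 0.20 with PLX3397 and by -0.19 ± 0.20 with both, and the combination differed from Anakinra alone by -1.10 ± 0.20. Without J17B and J20B the differences from vehicle were 0.67 ± 0.20, -0.31 ± 0.20 and -0.425 ± 0.20 in these groups. Vehicle and sham differed by 0.16 ± 0.21 (95% interval -0.27 to 0.58).

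Mmp2 (gelatinase A), its membrane-bound activator Mmp14 and the stromelysin Mmp3 were above sham in every injured mouse, and their differences among injured groups depended on J17B and J20B. Of the 10 fibroblast markers, 5 were called higher and 1 lower with PLX3397 against vehicle, where 3.23% and 6.66% of all genes were called. With both drugs 7 were higher and 1 lower, where 7.88% and 9.6% of all genes were called. With Anakinra 0 were called by limma, and 9 had an unadjusted p under 0.05. These calls include J17B and J20B and are not given without them. The fibroblast score was 5.26, 5.48 and 5.46 in J01B, J18B and J19B. It was 5.08 to 6.09 with PLX3397, 5.60 to 6.29 with Anakinra and 5.44 to 6.15 with both. The part of fibroblasts in the member levels was not tested. The vehicle mice had 17.8, 7.26, 19.3, 16.6 and 8.71 TPM of Mmp2, the second and the last being J17B and J20B, and the sham mice 2.35, 3.09, 3.44 and 3.06 TPM. With PLX3397 the range was 14.2 to 27.3 TPM, with Anakinra 18.9 to 35.3 TPM and with both 17.01 to 29.8 TPM. Every injured mouse was above every sham mouse, and each drug group overlapped vehicle. Of the same 17267 genes, 21.7% lay wholly above sham in vehicle, 18.7% with PLX3397, 21.3% with Anakinra and 16.9% with both. These shares also stand beside the separation from sham of Mmp3, Mmp14, Mmp19 and Timp1. Mmp2 differed from vehicle by 0.61 ± 0.22, 0.94 ± 0.22 and 0.70 ± 0.22 in these groups, and without J17B and J20B by 0.18 ± 0.19, 0.51 ± 0.19 and 0.27 ± 0.19.

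Mmp3 was listed at 0 in all sham mice. The vehicle mice had 3.21, 0.225, 3.85, 4.69 and 0.484 TPM, the PLX3397 mice 2.80, 7.22, 5.02, 4.66 and 9.26 TPM, the Anakinra mice 5.57, 4.94, 5.26, 7.58 and 7.17 TPM and the PLX3397+Anakinra mice 5.83, 4.84, 3.36, 4.71 and 4.85 TPM. J17B and J20B were the lowest of all injured mice. The Anakinra mice were all above the vehicle mice, as was so for 1.14% of the same 17267 genes. The differences from vehicle were 1.14 ± 0.32, 1.27 ± 0.32 and 0.96 ± 0.32 for PLX3397, Anakinra and both, and 0.40 ± 0.21, 0.53 ± 0.21 and 0.21 ± 0.21 without the pair. Mmp14 was the most abundant MMP among the members. It had 10.8 to 13.01 TPM in sham, 28.5 to 72.7 TPM in vehicle, 48.8 to 80.5 TPM with PLX3397, 64.7 to 99.1 TPM with Anakinra and 55.8 to 84.0 TPM with both. It differed from vehicle by 0.29 ± 0.20 with PLX3397, 0.53 ± 0.20 with Anakinra and 0.28 ± 0.20 with both. Without J17B and J20B the first and last of these turned to -0.12 ± 0.16 and -0.13 ± 0.16, with intervals of -0.44 to 0.20 and -0.46 to 0.19. The difference with Anakinra was then 0.12 ± 0.16.

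Mmp19, a secreted MMP, lay in the lower part of the vehicle range in the groups given PLX3397. It had 0.637 to 1.03 TPM in sham and 3.84 to 7.96 TPM in vehicle, of which J17B was the lowest. The levels were 4.30 to 5.48 TPM with PLX3397, 4.73 to 7.80 TPM with Anakinra and 3.85 to 5.54 TPM with both drugs. All injured groups were above sham without overlap and overlapped each other. Mmp19 differed from vehicle by -0.32 ± 0.13 with PLX3397, -0.02 ± 0.13 with Anakinra and -0.45 ± 0.13 with both, and without J17B and J20B by -0.50 ± 0.12, -0.20 ± 0.12 and -0.62 ± 0.12. Mmp19 shares 789 exon bases with Tmem198b on the other strand (6.21 to 15.6 TPM), and reads of the pair may have been mixed.

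Timp1, the inducible TIMP, had the largest difference between vehicle and sham of the 7 members above 0 in every sham mouse. Sham mice had 0.479, 0.457, 0.703 and 0.618 TPM, and vehicle mice 38.0, 18.2, 56.4, 61.7 and 28.5 TPM, a difference of 4.61 ± 0.28. The PLX3397 mice spread from 25.2 to 87.7 TPM, the Anakinra mice had 54.2 to 78.2 TPM and the PLX3397+Anakinra mice 44.5 to 55.0 TPM. All injured groups overlapped each other, the Anakinra and PLX3397+Anakinra groups only between 54.2 and 55.0 TPM, and every injured mouse was above every sham mouse. Timp1 differed from vehicle by 0.53 ± 0.26, 0.79 ± 0.26 and 0.45 ± 0.26 in the groups given PLX3397, Anakinra and both, and by 0.08 ± 0.24, 0.34 ± 0.24 and 0.00 ± 0.24 without J17B and J20B. Timp1 lies inside Syn1 on the other strand with no shared exon base. Syn1 stood at 297 to 542 TPM and was highest in sham, where Timp1 was lowest.

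Timp2 and Timp3 were the most abundant members, and their differences were small. Timp2, which also takes part in the activation of Mmp2 by Mmp14, had 274 to 320 TPM in sham, 350 to 425 TPM in vehicle, 325 to 375 TPM with PLX3397, 347 to 384 TPM with Anakinra and 314 to 367 TPM with both drugs. Timp3 had 89.5 to 108 TPM in sham and 108 to 126 TPM over the 20 injured mice. Vehicle differed from sham by 0.40 ± 0.06 for Timp2 and by 0.28 ± 0.05 for Timp3. The differences from vehicle in the drug groups ran from -0.16 to -0.07 for Timp2 and from -0.06 to -0.01 for Timp3, each with an SE of 0.06 and 0.04. Without J17B and J20B they ran from -0.22 to -0.13 for Timp2 (SE 0.06) and from -0.07 to -0.03 for Timp3 (SE 0.05). Timp3 shares 1733 exon bases with Syn3 on the other strand, and Syn3 had 7.12 to 11.5 TPM, well under Timp3. The 7 MMPs together amounted to 4.16% to 4.67% of the 3 TIMPs in sham, 9.63% to 20.2% in vehicle, 14.8% to 24.1% with PLX3397, 20.1% to 29.9% with Anakinra and 16.8% to 25.4% with both. These are ratios of RNA levels, not of protein or activity. J17B and J20B were the lowest vehicle mice in this ratio, and the vehicle range is not given without them.

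**Figure D3:**
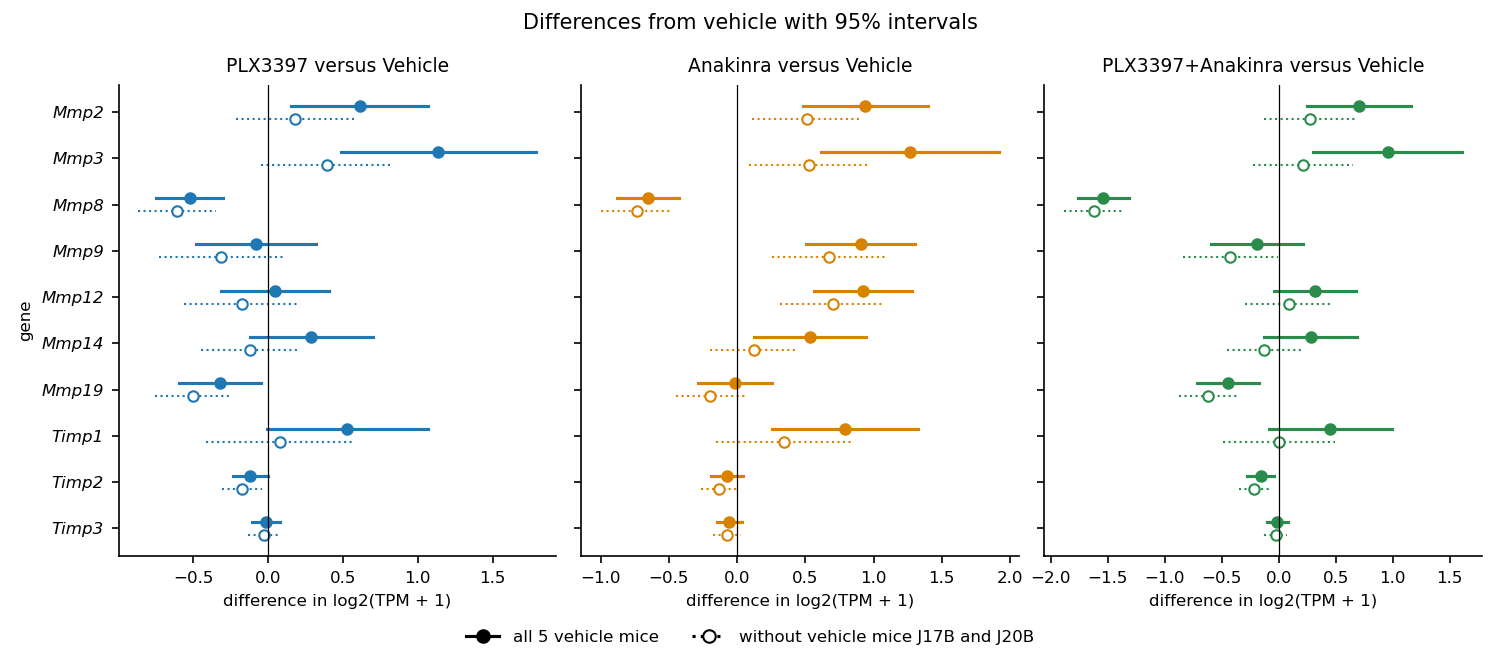
Difference from vehicle in log2(TPM + 1) (x axis) for each gene (y axis) in the 3 drug groups, with 95% intervals; filled points use all 5 vehicle mice and open points with dotted intervals leave out J17B and J20B. Mmp8 lies left of 0 in all panels with either set. Every gene moves left once the pair is left out, and Mmp2, Mmp3, Mmp14 and Timp1 move the most.

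A wider list of 71 genes of the same system was tested with limma in a fit over the 17267 genes averaging 0.5 TPM or more, which kept all 10 members: 16 other MMPs, 8 other inhibitors, 13 ADAM and 19 ADAMTS proteases, and 15 genes of MMP activation and clearance, of which 61 were kept. Vehicle against sham changed 47 of them, 36 higher and 11 lower, where 26.6% of all genes were called higher and 27.7% lower, with a median difference of 0.38 against -0.01 over all genes. Activation and clearance genes made up 13 of the higher calls (of 14 kept), ADAMTS proteases 8 (of 18), ADAM proteases 6 (of 11), other MMPs 5 (of 10) and other inhibitors 4 (of 8). Among inhibitors A2m, the plasma protease trap alpha-2-macroglobulin, rose by 3.62 ± 0.15 (adjusted p = 1.09e-15, limma). Adam8, a leukocyte sheddase, rose by 3.41 ± 0.18 (adjusted p = 4.36e-14), and Cd44, a hyaluronan receptor that also binds Mmp9, rose by 3.16 ± 0.12 (adjusted p = 1.57e-16). Of the membrane-type MMPs, Mmp17 fell by 0.51 ± 0.08 (adjusted p = 1.2e-05) and Mmp24 by 0.51 ± 0.07 (adjusted p = 1.8e-06), beside neuron markers that were lower after injury in 5 of 5 genes. The other membrane-type MMPs did not fall. Mean levels in sham and vehicle were 19.9 and 22.5 TPM for Mmp15, 13.6 and 13.6 TPM for Mmp16, and 0.209 and 0.536 TPM for Mmp25. The member Mmp14 differed from sham by 2.03 ± 0.21. Timp4, the remaining TIMP, rose by 0.44 ± 0.07 (adjusted p = 9.5e-06), and it shares 90 exon bases with the abundant Syn2.

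PLX3397 against vehicle changed 8 of the 61 genes, 1 higher and 7 lower, where 3.23% and 6.66% of all genes were called. Adam8 fell from 21.4 to 49.4 TPM in vehicle to 15.4 to 24.3 TPM, by 0.88 ± 0.17 (adjusted p = 0.000721). Adam17, the sheddase that releases tumor necrosis factor, fell by 0.46 ± 0.07 (adjusted p = 6.62e-05), Adam10 by 0.24 ± 0.04 (adjusted p = 0.000552) and Plau, the urokinase that activates plasminogen, by 0.67 ± 0.18 (adjusted p = 0.0189). Thbs2, a matrix protein that binds Mmp2, was the gene that rose, by 0.98 ± 0.29 (adjusted p = 0.0291), and without J17B and J20B no gene of the list was called higher and 8 were called lower, where 11.3% of all genes were called in either direction. Microglial markers were lower in 9 of 9 genes in this comparison, and their part was not tested.

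Anakinra against vehicle changed 0 of the 61 genes in the limma fit, of which 18 had an unadjusted p under 0.05, and 0.0695% of all genes were called higher and 0.0463% lower. The combination against vehicle changed 16, 5 higher and 11 lower, where 7.88% and 9.6% of all genes were called. Adam8 fell by 1.20 ± 0.17 (adjusted p = 8.05e-06), Adam17 by 0.52 ± 0.07 (adjusted p = 6.27e-06) and Plau by 0.89 ± 0.18 (adjusted p = 0.0011). Lcn2, a lipocalin that binds and stabilises Mmp9, fell by 1.52 ± 0.41 (adjusted p = 0.0105), from 39.96 to 90.8 TPM in vehicle to 12.2 to 54.8 TPM. It had 15.3, 23.7, 52.9, 17.9 and 16.6 TPM with Anakinra alone and 40.4 to 66.4 TPM with PLX3397 alone, and neither was called. The means were 62.6 TPM in vehicle, 25.3 TPM with Anakinra, 54.9 TPM with PLX3397 and 23.4 TPM with both. Under its own criteria, the study lists Lcn2 as changed by Anakinra alone and by the combination. It lists Thbs2 as changed with Anakinra only, and not with PLX3397 or the combination. Mean Thbs2 was 17.4 TPM in vehicle, 36.5 TPM with Anakinra, 32.9 TPM with PLX3397 and 34.6 TPM with both. Thbs2, Mmp23 and Adamts2 rose by 1.09 ± 0.29, 0.54 ± 0.17 and 0.41 ± 0.12 (adjusted p = 0.00956, 0.0344 and 0.0193, limma), and all 3 calls were lost without J17B and J20B.

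The combination against PLX3397 alone changed 0 of the 61 genes in the limma fit, with 4 at an unadjusted p under 0.05, and 0.00579% of all genes were called higher and 0.145% lower. Against Anakinra alone it changed 12, 3 higher and 9 lower, where 4.67% and 8.1% of all genes were called. Adam8 fell by 1.13 ± 0.17 (adjusted p = 2.29e-05), Plau by 0.95 ± 0.18 (adjusted p = 0.000685) and its receptor Plaur by 0.58 ± 0.16 (adjusted p = 0.0151). Itgb3, the beta-3 integrin, fell by 0.61 ± 0.10 (adjusted p = 5.02e-05). Mmp17 rose by 0.24 ± 0.08 (adjusted p = 0.0469), a call lost when libraries were rescaled by their median ratio and on leaving out any of many single mice.

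Variation among mice of 1 group was not used to choose the members and was tested. Over the 20 injured mice, deviations of log2(TPM + 1) from the group mean were correlated for the 45 pairs of members, with 100000 permutations of the mice within groups (two-sided) and adjustment over the 45 pairs. Of these, 20 pairs passed at an adjusted p under 0.05 for Pearson's r, all 20 positive, and 15 of them passed for Spearman's rho as well. The share of pairs of other genes that would pass was not computed, so this count is not read as a trait of the members. Timp3 was in none of the 20 pairs, and Timp2 in 1. Without J17B and J20B, 8 pairs passed, and they linked Mmp2 with Mmp9, Mmp12, Mmp14 and Mmp19, Mmp14 with Mmp9 and Mmp19, Mmp12 with Mmp19, and Mmp3 with Timp1.

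Mmp2 and its activator Mmp14 went together most closely, with r = 0.930 (permutation p = 1e-05, the smallest that these permutations can give, adjusted p = 0.0003) and rho = 0.937 (permutation p = 2e-05, adjusted p = 0.00045). Leaving out the 2 mice farthest from the median of Mmp2, which were J17B and J20B, gave r = 0.899 with the deviations from the means of all 5 mice kept, and r = 0.863 with the vehicle mean taken anew from the other 3. The values without 2 mice that follow keep the deviations unless a second one is given. Mmp3 and Timp1 had r = 0.879 (permutation p = 2e-05, adjusted p = 0.0003) and rho = 0.820 (permutation p = 0.00039, adjusted p = 0.0036), and without the same pair r = 0.853, or 0.843 with the vehicle mean taken anew. Mmp12 and Mmp19 had r = 0.789 (permutation p = 0.00034, adjusted p = 0.0027) and rho = 0.761 (permutation p = 0.00048, adjusted p = 0.0036), and r = 0.821 without J10 and J22. Mmp8 had its highest r with Timp1, 0.616 (permutation p = 0.00581, adjusted p = 0.0174), with rho = 0.520 (permutation p = 0.0201, adjusted p = 0.0553), and r = 0.489 without J01 and J05. None of the pairs with Mmp8 passed without J17B and J20B.

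**Figure D4:**
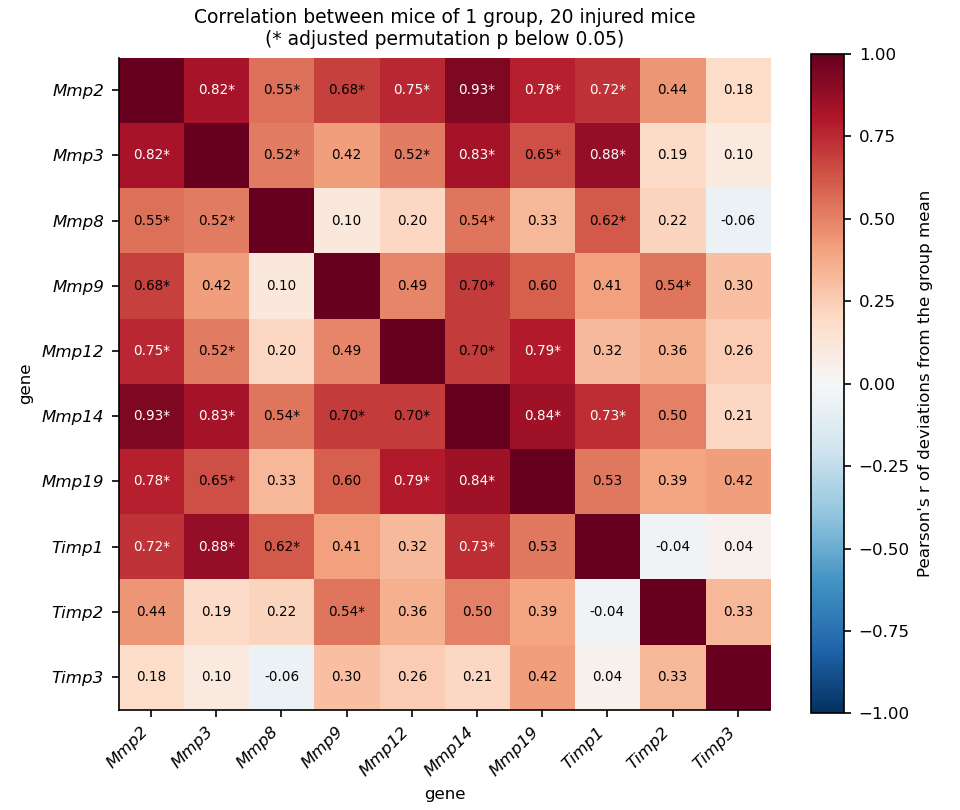
Pearson's r between each pair of the 10 genes over 20 injured mice, computed on deviations of log2(TPM + 1) from the group mean (colour scale from -1 to 1); an asterisk marks an adjusted permutation p under 0.05. The highest value is 0.930 for Mmp2 and Mmp14, and Timp3 has no marked pair.

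The same deviations were set against the mean log2 level of 12 lists of cell type markers, a family of 120 relations added after seeing the data, of which 42 passed at an adjusted p under 0.05. The share of other genes that would pass with these lists was not computed. With the fibroblast list, Mmp2 had r = 0.955 (permutation p = 1e-05, adjusted p = 0.0006) and rho = 0.947 (permutation p = 1e-05, adjusted p = 0.0012), and r = 0.945 without the 2 mice farthest from its median, deviations kept. For Mmp14 the values were r = 0.940 (permutation p = 2e-05, adjusted p = 0.0008) and rho = 0.947 (permutation p = 2e-05, adjusted p = 0.0012), and r = 0.901 without its 2 farthest mice. Neither relation was limited to the fibroblast list. Mmp2 and Mmp14 each passed with 5 other lists as well, those of border macrophages (r = 0.859 and 0.857), mural cells (0.856 and 0.892), endothelium (0.826 and 0.817), activated phagocytes (0.761 and 0.677) and, negatively, neurons (-0.746 and -0.755), each with an adjusted permutation p of at most 0.0158 for r and at most 0.0401 for rho. Without J17B and J20B, 17 of the 120 relations passed, all of them of Mmp2, Mmp3, Mmp14 or Mmp19. The relation of Mmp2 to the fibroblast list, with the vehicle mean taken anew, was then r = 0.958 (permutation p = 1e-05, adjusted p = 0.0012) and rho = 0.946 (permutation p = 1e-05, adjusted p = 0.0012). Mmp8 and the neutrophil list had r = 0.556 (permutation p = 0.00838, adjusted p = 0.0284) and rho = 0.546 (permutation p = 0.0177, adjusted p = 0.0608), and r = 0.474 without its 2 farthest mice. Mmp8 also passed with the border macrophage list, r = 0.598 (permutation p = 0.00779, adjusted p = 0.0275) with rho = 0.490 (permutation p = 0.0387, adjusted p = 0.108), and with the fibroblast list, r = 0.543 (permutation p = 0.00399, adjusted p = 0.0164) with rho = 0.510 (permutation p = 0.0139, adjusted p = 0.0506). Mmp8 passed with no list without J17B and J20B. What sets the amount of fibroblast RNA in a sample, such as the share of lesion in the dissected tissue, was not tested.

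**Figure D5:**
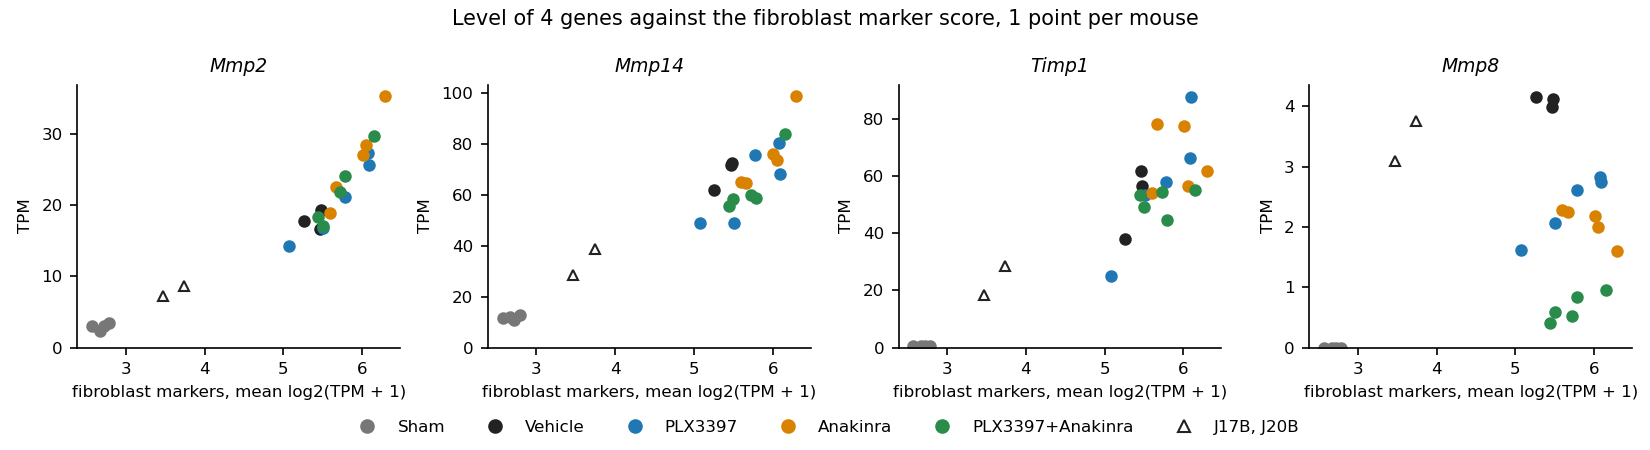
TPM of Mmp2, Mmp14, Timp1 and Mmp8 (y axes, from 0) against the mean log2(TPM + 1) of 10 fibroblast markers (x axis), 1 point per mouse, coloured by group, with J17B and J20B as open triangles. Mmp2 and Mmp14 climb with the score across groups, while at scores of 5.08 to 6.29 Mmp8 separates into vehicle, single-drug and PLX3397+Anakinra layers.

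Among the 15775 other genes averaging 1 TPM or more, those most like each member over the 20 injured mice are given by Pearson's r of the deviations, as a description. For Mmp2 they were Bgn (0.963), Nid1 (0.962) and Col6a2 (0.955), all genes of extracellular matrix. Bgn (0.967) and Nid1 (0.957) also led for Mmp14, followed by Fn1 (0.955), and Mmp3 was nearest to Kdelr3 (0.958), Col5a2 (0.944) and the collagen crosslinker Lox (0.942). For Timp1 they were Plaur (0.919), S100a11 (0.905) and Tspo (0.903), and for Mmp19 Gpr137b (0.926), Plau (0.911) and Dab2 (0.905). The nearest genes lay farther off for Mmp12, with Zak (0.838), Slc36a2 (0.832) and Heatr5a (0.818), for Mmp9, with Ybx1 (0.825), Wipf1 (0.825) and Ckap4 (0.817), and for Mmp8, with Il4ra (0.791), Svbp (0.775) and Krt19 (0.773). For Timp2 they were St6galnac4 (0.887), Pdcd6ip (0.877) and Tle3 (0.870), and for Timp3 Aim1 (0.772), Wnk4 (0.737) and Leng8 (0.734). All values come from the same 20 libraries, which share the dissection and the sequencing.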

How the data were processed

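Poly-A RNA of 24 mice was sequenced as paired ends. The authors trimmed and mapped the reads in CLC Genomics Workbench, with GRCm38 named in the labels, and deposited TPM values per gene, scaled by gene length and to the same total in each library. The full table (36333 genes) was used. A filtered table (20181 genes) and a rounded table served as alternatives. Columns of the authors' own comparisons were not used. Whether reads were counted by strand is not given in the sources used here.

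The members and all gene lists were chosen with earlier results of these data known. Groups came from the labels. Genes averaging 0.5 TPM or more were fitted on log2(TPM + 1) with limma 3.58.1 (R 4.3.3, trend, all 5 groups in 1 fit) and called at a Benjamini-Hochberg adjusted p under 0.05. Named genes were the members, the 3 called genes with the largest difference per list and comparison at most, the 3 genes most like each member, the overlapping synapsin genes and marker genes. Mmp10, Mmp15, Mmp16, Mmp24, Mmp25, Timp4 and Tmem198b were named after their values were seen, as were some called genes beside those of largest difference. Correlations were computed with NumPy 2.4.6 and SciPy 1.17.1. The steps were tested on simulated data. Animal numbers J01, J19 and J20 occur in the vehicle and PLX3397 groups, but the deviations of same-numbered mice correlated at 0.17, -0.13 and -0.07, so the numbers were not taken to pair mice. Alternatives were another pseudocount, other filters, median-ratio rescaling, the study's fold criteria, a fit of the compared groups alone, the other tables and each mouse left out.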

Additional observations from a re-analysis of the deposited data

Results flagged for a closer look

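Of 61 groups of values with any spread (the 10 members, Mmp10, Mmp13 and Mmp27 in 5 groups), 7 held a mouse far from the others by Dixon's test at 95%. Chance flags about 1 in 20 groups whose values vary freely. That rate does not hold where all mice but 1 are at 0, as for Mmp12 and Mmp13 in sham. There any value above 0 is flagged. With PLX3397+Anakinra, mouse J03 had 84.0 TPM of Mmp14, against 55.8 to 59.9 TPM in the other 4 mice, and 5.54 TPM of Mmp19, against 3.85 to 4.23 TPM. PLX3397 mouse J02 had 5.28 TPM of Mmp12 beside 3.53 to 4.03 TPM. Anakinra mouse J06 had 108.3 TPM of Timp3 beside 117 to 119 TPM. Among sham mice, J07 had 1.80 TPM of Mmp9 beside 1.44 to 1.49 TPM and 0.188 TPM of Mmp12 where the others were listed at 0, and J16 had 0.082 TPM of Mmp13 where the others were listed at 0.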

How the results depend on the processing

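Of 1800 values of members under alternatives, 25 moved by over 1 SD, among them Mmp14, whose sign turned without J17B and J20B. Of 1713 calls of wider genes under alternatives, 90 were lost and 0 reversed. Under the study's criteria (unadjusted p under 0.05, over 2-fold and a difference over 4 TPM), the wider list had 13 genes called for vehicle against sham, 0 for PLX3397, 2 for Anakinra and 2 for PLX3397+Anakinra against vehicle, 1 for the combination against PLX3397 and 2 against Anakinra; those criteria by construction leave out genes of low level. For PLX3397 against vehicle, 5 genes were called with the compared groups alone and 5 with a replicate block on the shared animal numbers (6 mice), in place of 8. For the combination against PLX3397, 1 gene was called with a pseudocount of 0.1 and 1 without J17B and J20B, in place of 0. With 1 mouse left out at a time, the counts ran from 45 to 48 for vehicle against sham, 5 to 10 for PLX3397 (5 without J20B), 0 to 2 for Anakinra (2 without J19B, 1 without J18B) and 12 to 20 for the combination against vehicle, and 0 to 1 (1 without J17B) and 9 to 15 for the combination against PLX3397 and Anakinra alone. Of the 45 correlations between members, 20 passed, 11 without the 2 farthest mice of the first gene and 8 without J17B and J20B, and both of these use fewer mice. The causes of the other changes were not tested. TPM values give no depth, which limits what can be said of genes under about 1 TPM, such as Mmp27.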
